A study of Homo sapiens with 8 samples.

Results

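Of the 214 genes that GENCODE 44 names SNORA, the box H/ACA small nucleolar RNAs (snoRNAs), 79 lay wholly inside a protein-coding gene on the same strand that was neither a ribosomal protein gene, a translation initiation or elongation factor gene, nor TPT1, TAF1D or IPO7. SNORA73A and SNORA73B were left out. A pair of these records described a single RNA, SNORA50A, so 78 RNAs were followed. Their 69 hosts included NCL, NOP56, DKC1, MATR3, KANSL2 and TCP1. All values are cDNAs at significant crosslink sites within the annotated RNA or up to 5 nt upstream of it, in 8 iCLIP libraries. The nuclei came from U2OS, an established line of human osteosarcoma cells.

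The method, crosslinking and immunoprecipitation at single-nucleotide resolution, joins a protein by ultraviolet light to the RNA it touches, and the end of the cDNA marks the joined nucleotide. Nuclear fractions of ultraviolet-treated, otherwise untreated U2OS cells were precipitated with a mouse antibody against dyskerin, with a rabbit antibody against GAR1, or with mouse IgG labelled as the control of either experiment. Each of these 4 groups had 2 replicates, and the species of the IgG did not match that of the GAR1 antibody. The question was which RNAs the proteins of the H/ACA complex contact and where. Markers fixed for the line gave cDNAs on 5 of 10 osteosarcoma and mesenchymal genes (RUNX2, COL1A1, SPARC, VIM and CD44), with SP7, ALPL, COL1A2, BGLAP and SPP1 at 0, and the blood cell genes PTPRC, HBB and CD3E were at 0. Of 4 neuronal genes SYN1 was at 0, while SNAP25, HTR2C and RBFOX3 had 7, 21 and 85 cDNAs in all. Totals of peak cDNAs were 1693951 and 1875459 for dyskerin and 585454 and 1976518 for GAR1. The IgG libraries were uneven, with 146514 and 8183 in the dyskerin experiment and 295255 and 10701 in the GAR1 experiment, so replicate 2 of each stood apart in depth.

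An H/ACA snoRNA folds into a pair of hairpins joined by a hinge with the H box and followed by a tail with the ACA trinucleotide. Dyskerin, the pseudouridine synthase, binds this RNA with NOP10, NHP2 and GAR1, and a pocket in a hairpin pairs with the target, mostly ribosomal RNA, on either side of the uridine to be changed. In mammals most of these RNAs have no promoter of their own. They are cut from introns of host genes, which tie their supply to the transcription and splicing of the host.

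The RNAs shown here were picked as examples from those with many cDNAs or for the positions of their crosslink sites, without a ranking of site differences. SNORA57, SNORA51 and SNORA77B were among the 12 of highest level, and SNORA54, SNORA2B and SNORA12 were chosen after their positions were seen. Letters are from the GRCh38 genome, 5′ to 3′, with T for U. Capitals mark 7 nt centred on the strongest site of dyskerin and on the strongest site of GAR1 within the annotated RNA, which are a single stretch where both share it. SNORA57 is chr11:62665422-62665570 on the plus strand, SNORA51 chr20:2655067-2655198 plus, SNORA77B chr22:20126402-20126526 plus, SNORA54 chr11:2963771-2963893 minus, SNORA2B chr12:48667457-48667593 minus and SNORA12 chr10:100237156-100237302 minus.
SNORA57: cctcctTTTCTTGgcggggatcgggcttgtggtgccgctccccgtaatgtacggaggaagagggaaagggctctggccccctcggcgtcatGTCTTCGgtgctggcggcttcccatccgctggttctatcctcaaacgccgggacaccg
SNORA51: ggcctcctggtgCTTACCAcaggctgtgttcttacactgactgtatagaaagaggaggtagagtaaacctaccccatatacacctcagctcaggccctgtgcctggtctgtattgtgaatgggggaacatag
SNORA77B: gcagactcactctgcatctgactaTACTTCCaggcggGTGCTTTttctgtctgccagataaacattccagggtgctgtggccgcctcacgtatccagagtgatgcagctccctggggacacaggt
SNORA54: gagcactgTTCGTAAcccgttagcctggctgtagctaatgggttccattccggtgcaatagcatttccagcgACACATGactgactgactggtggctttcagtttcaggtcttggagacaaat
SNORA2B: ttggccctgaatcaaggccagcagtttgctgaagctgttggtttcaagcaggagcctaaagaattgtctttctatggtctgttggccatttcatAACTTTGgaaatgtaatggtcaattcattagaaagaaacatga
SNORA12: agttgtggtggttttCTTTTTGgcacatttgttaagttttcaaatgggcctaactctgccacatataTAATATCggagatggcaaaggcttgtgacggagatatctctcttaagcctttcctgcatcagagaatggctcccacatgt

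The annotated bodies measured 123 to 701 nt, with a median of 135 nt, and 77 of 78 lay in an intron of the canonical host transcript. The longest, SNORA59B at 701 nt, had cDNAs in a single library. The tail motif ACANNN stood at the annotated 3′ end of 56 of 78 RNAs and of 83 of the 133 other SNORA RNAs. The H box pattern ANANNA, searched on the RNA strand, began and ended between nt 45 and 75 in 66 of 78 and in 109 of those 133. At least 90% of the bases of 30 RNAs were identical to another annotated SNORA gene, and reads that fit several copies were kept by the authors, so values of these copies are uncertain.

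Detection was broad in the antibody libraries. Sites fell on 60 and 61 of the 78 RNAs in the dyskerin libraries and on 59 and 65 in the GAR1 libraries, against 51 and 43 in the IgG libraries of the dyskerin experiment and 60 and 45 in those of the GAR1 experiment. The shallow IgG libraries had the fewest. Sites appeared in all 8 libraries for 39 RNAs, and 59 passed the filter of at least 10 cDNAs in at least 2 libraries. For 12 RNAs no library had a site, where 3 counts would be 1.52 CPM (cDNAs per 1000000 peak cDNAs) in the deepest library and 367 CPM in the shallowest. These were 5 members of the SNORA70 family (SNORA70, SNORA70C, SNORA70D, SNORA70E and SNORA70F), SNORA29 in TCP1, SNORA35 in HTR2C, SNORA59A, SNORA62 in MMP26, SNORA72 in NUCKS1, SNORA73 in RNGTT and SNORA74C-1. SNORA35 lies in the serotonin receptor gene HTR2C, whose own locus had 21 cDNAs in all. Their median distance to the next exon of the host was 4734 nt, against 917 nt for the 59 that passed the filter, a description only. ACANNN ended 7 of these 12 and 46 of those 59.

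The level was concentrated in a few RNAs. The 12 of highest mean level over the antibody libraries were SNORA57, SNORA51, SNORA74A, SNORA75, SNORA77B, SNORA74D, SNORA20, SNORA80E, SNORA53, SNORA74B, SNORA84 and SNORA5A, and the top 12 of a library held between 53.0% and 61.2% of its member cDNAs. Per 100 nt of RNA, SNORA51 came first with 5347 CPM and SNORA57 second with 5093 CPM, followed by SNORA75 with 4931 CPM and SNORA77B with 4455 CPM, as means over the 4 antibody libraries. Over these 4 the order is a description, since single libraries ranked them differently.

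**Figure D1:**
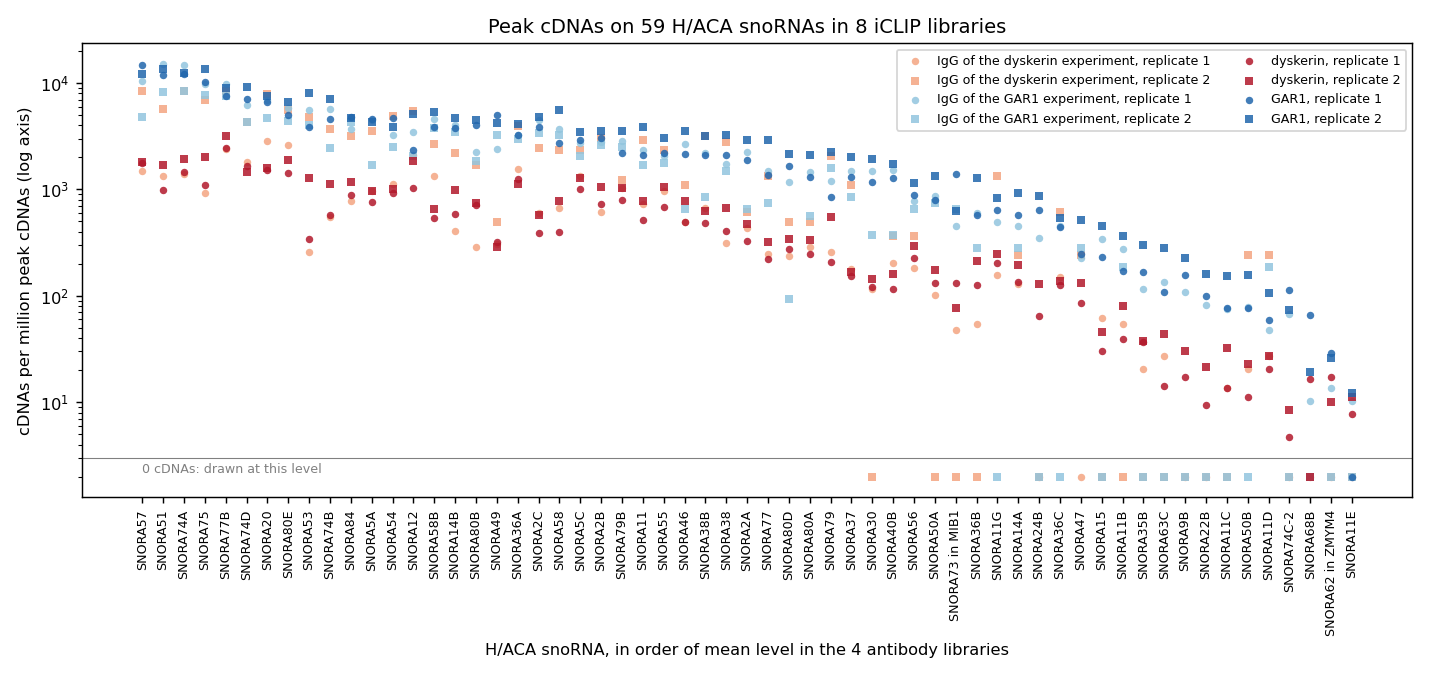
Level of each of the 59 snoRNAs that passed the filter, in CPM on a log axis, with a point per library and RNAs ordered by their mean over the 4 antibody libraries. SNORA57 stands first, with 14700 and 12090 CPM in GAR1 against 1766 and 1798 CPM in dyskerin, and GAR1 points lie above dyskerin points for most RNAs.

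SNORA57 is hosted by CSKMT, which encodes a lysine methyltransferase of citrate synthase. It measured 1766 and 1798 CPM in dyskerin, 14700 and 12090 CPM in GAR1, 1481 and 8432 CPM in the dyskerin IgG and 10520 and 4766 CPM in the GAR1 IgG. GAR1 stood above all other libraries and dyskerin within the range of its IgG. SNORA51, in the gene of the C/D snoRNP core protein NOP56, had 981.7 and 1684 CPM in dyskerin, 11900 and 13670 CPM in GAR1, 1324 and 5744 CPM in the dyskerin IgG and 15090 and 8224 CPM in the GAR1 IgG. For SNORA51 the GAR1 libraries lay inside the range of their IgG.

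SNORA75 comes from NCL, which encodes nucleolin. Its values were 1090 and 2019 CPM in dyskerin, 10280 and 13630 CPM in GAR1, 928.2 and 6966 CPM in the dyskerin IgG, and 9822 and 7756 CPM in the GAR1 IgG. SNORA77B, hosted by RANBP1 of the Ran nuclear transport cycle, was the highest of the RNAs in dyskerin with 2463 and 3165 CPM, and had 7579 and 9071 CPM in GAR1, 2403 and 8432 CPM in the dyskerin IgG and 9781 and 7476 CPM in the GAR1 IgG. In both RNAs the dyskerin replicates lay below the GAR1 replicates and overlapped their IgG. GAR1 lay above both of its IgG libraries for SNORA75 and overlapped them for SNORA77B.

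SNORA20 from TCP1, a subunit of the cytosolic chaperonin, had 1521 and 1577 CPM in dyskerin and 6680 and 7600 CPM in GAR1. Its IgG values were 2867 and 7821 CPM in the dyskerin experiment, both above dyskerin, and 6974 and 4672 CPM in the GAR1 experiment. SNORA36A from DKC1, the gene of dyskerin itself, had 1249 and 1130 CPM in dyskerin, 3257 and 4103 CPM in GAR1, 1570 and 3911 CPM in the dyskerin IgG and 3279 and 2990 CPM in the GAR1 IgG. Across the other RNAs of the 12, mean levels ran from 804.8 ± 658.1 CPM (SD, n = 2) for SNORA53 to 1703 ± 347 CPM for SNORA74A in dyskerin, and from 4431 ± 186.2 CPM for SNORA5A to 12270 ± 241.2 CPM for SNORA74A in GAR1.

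Against IgG, no RNA was called. In dyskerin against its IgG, edgeR's quasi-likelihood test with Benjamini-Hochberg adjustment called 0 of 59, with 1 at an unadjusted p under 0.05 (SNORA24B, at 0 in both IgG libraries, adjusted p = 0.14), and DESeq2 called 0 with 0 at that unadjusted p. Over all 6412 genes tested, 0.0% were called higher and 0.109% lower. The median log2 fold of the 59 was -0.89, against 1.96 over all genes tested, and 42 of 59 lay below 0. With the 7 RNAs that were at 0 in both IgG libraries set at a floor of 3 cDNAs over the group, or 19.4 CPM, the median was -0.95. Its sign was not settled, since the median was 0.23 without IgG replicate 2 of the dyskerin experiment, a library of 8183 cDNAs, and 0.28 with 22 of 59 below 0 when each library was scaled to its SNORA cDNAs. With TMM scaling it was -0.14 with 33 below 0, and with DESeq2 -0.04 with 32 below 0. In GAR1 against its IgG, edgeR called 0 of 59 with 0 at an unadjusted p under 0.05, DESeq2 called 0 with 2 at that p (SNORA49 and SNORA80B), and 0.0% of all genes were called higher and 0.187% lower. The median of the 59 was 0.61, against 0.0 over all genes. The scaling moved this median widely, to 4.73 with 49 of 59 at an unadjusted p under 0.05 by TMM and to 2.6 by DESeq2, both with 0 of 59 below 0 and 0 called. The excess over IgG was not shown to differ between the antibodies, with 0 of 59 called for the interaction by edgeR, 0 of them with an unadjusted p under 0.05, the lowest adjusted p being 0.734.

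Dyskerin against GAR1 gave calls in a single direction. Of 59 RNAs, 28 were lower in dyskerin and 0 higher, with 58 of 59 fitted below 0 and a median log2 fold of -2.44. Over all genes tested 2.73% were called lower and 90.6% higher, with a median of 6.56. These counts depend on the scaling to all peak cDNAs, of which the snoRNAs held unequal shares. The smallest adjusted p belonged to SNORA74C-2 in TIMM23B, with a log2 fold of -3.78 ± 0.91 (SE) and an adjusted p of 4.7e-05 by edgeR. This RNA had few cDNAs, 8 and 16 in dyskerin and 67 and 146 in GAR1. It was 98.0% identical to SNORA74C-1, which had no site, so the placement of reads between these copies is uncertain. SNORA51 fell by 3.26 ± 0.90 (adjusted p = 0.000369 by edgeR), SNORA74A by 2.85 ± 0.87 (adjusted p = 0.00136 by edgeR) and SNORA57 by 2.91 ± 0.90 (adjusted p = 0.00144 by edgeR) on the log2 scale. SNORA75 fell by 2.94 ± 0.91 with an adjusted p of 0.00153, SNORA22B in CCT6A by 3.07 ± 0.98 with 0.00208, and SNORA49 in EP400, a chromatin remodelling ATPase, by 3.91 ± 1.27 with 0.00247, all by edgeR.

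Others of the called RNAs were SNORA68B, SNORA50B and SNORA2C, with adjusted p-values of 0.00627, 0.00675 and 0.0078 by edgeR. SNORA68B had few cDNAs, 28 and 0 in dyskerin and 39 and 38 in GAR1. It was 90.2% identical to SNORA68, so the placement of its reads is uncertain. SNORA50B had 19 and 43 cDNAs in dyskerin and 45 and 311 in GAR1. SNORA20 fell by 2.20 ± 0.95 with an adjusted p of 0.0228 by edgeR. SNORA77B, SNORA80E and SNORA54 missed the threshold with log2 folds of -1.56, -1.80 and -2.15. So did both RNAs of DKC1, SNORA36A at -1.63 ± 1.09 and SNORA56 at -1.96 ± 1.55. The count was 0 without either dyskerin library, 15 without GAR1 replicate 2, of which 1 (SNORA11E) was higher, 20 without GAR1 replicate 1, and 54 without either IgG library of the dyskerin experiment.

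All SNORA RNAs together held 11.6% and 14.7% of peak cDNAs in dyskerin, 71.6% and 70.3% in GAR1, 13.8% and 50.3% in the dyskerin IgG, and 70.7% and 60.1% in the GAR1 IgG. When each library was scaled to its SNORA cDNAs, a setting chosen after the data were seen, the median of the 59 in dyskerin against GAR1 was -0.03, that of all genes was 8.34, 30 of the 59 lay below 0, and edgeR called 1 higher and 0 lower. Without either dyskerin library it called 0, and without IgG replicate 1 of the dyskerin experiment 2, of which 1 (SNORA49) was lower. Under that scaling 92.8% of all genes were called higher and 0.234% lower. The called RNA was SNORA11E in MAGED4B, with 13 and 21 cDNAs in dyskerin and 0 and 24 in GAR1, a log2 fold of 2.71 ± 0.76 and an adjusted p of 0.000438 by edgeR. Its sequence was identical to that of SNORA11D in MAGED4, which had 35 and 51 cDNAs in dyskerin, 35 and 210 in GAR1 and a fold of 0.62 ± 0.92, so reads cannot be told apart between the copies.

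On that scale the lowest were SNORA49 at -1.45 ± 1.51, SNORA74C-2 at -1.40 ± 0.89, SNORA30 at -1.12 ± 2.04, SNORA40B at -1.02 ± 2.00 and SNORA37 at -0.94 ± 1.93 (log2, SE). The highest after SNORA11E were SNORA62 in ZMYM4 at 1.46 ± 0.82, SNORA12 at 1.02 ± 1.06, SNORA5C at 0.96 ± 1.23 and SNORA77B at 0.87 ± 0.77. None of these passed. Scaled to all peak cDNAs, SNORA49 measured 321.1 and 289.0 CPM in dyskerin and 307.1 and 488.8 CPM in its IgG. It had 5023 and 4179 CPM in GAR1 and 2384 and 3271 CPM in the IgG of that experiment. In CPM all 4 libraries of the dyskerin experiment thus lay below all 4 of the GAR1 experiment. This was not particular to SNORA49, since SNORA51, SNORA75, SNORA2C and SNORA14B, among others, had the same order. The SNORA RNAs together held unequal shares of peak cDNAs in these libraries.

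**Figure D2:**
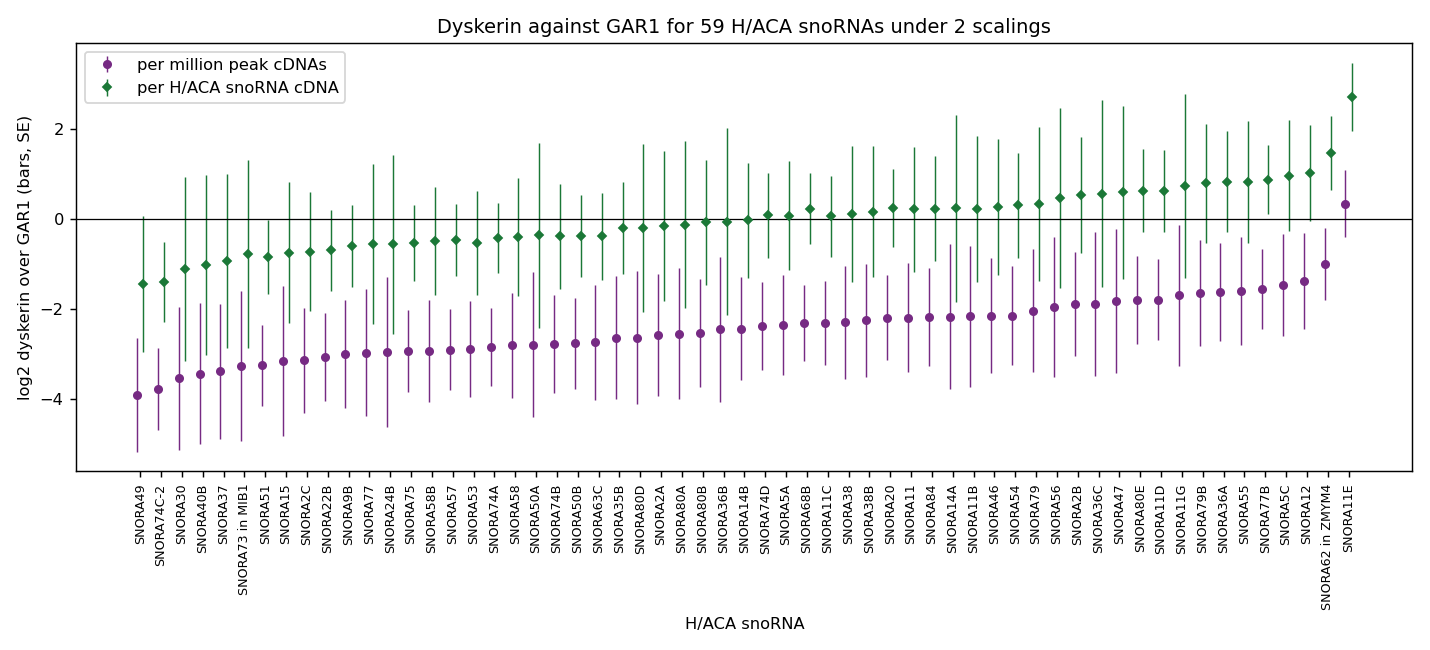
log2 ratio of dyskerin to GAR1 with its SE for the 59 tested snoRNAs, from a fit scaled to all peak cDNAs (circles) and a fit per H/ACA snoRNA cDNA (diamonds). The circles centre on -2.44 and the diamonds on -0.03.

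The 78 RNAs took 2.94% and 3.99% of peak cDNAs in dyskerin, 16.4% and 20.6% in GAR1, 3.49% and 12.6% in the dyskerin IgG and 16.7% and 11.1% in the GAR1 IgG. Wilson 95% intervals, which cover counting error only, were 2.91 to 2.96% for dyskerin replicate 1 and 11.9 to 13.3% for the shallowest IgG library. The mean share of the 4 antibody libraries exceeded that of the 4 IgG libraries by 0.00363 percentage points, and the two-sided exact permutation test gave a p of 1.0 over 70 arrangements, of which the smallest p possible is 0.0286. The experiments went opposite ways, with dyskerin minus its IgG at -4.58 points and GAR1 minus its IgG at 4.6 points. As a share of SNORA cDNAs the libraries were more alike, at 25.3% and 27.2% in dyskerin, 22.9% and 29.4% in GAR1, 25.4% and 25% in the dyskerin IgG and 23.7% and 18.5% in the GAR1 IgG. Antibody and IgG overlapped on both scales, and 2 against 2 libraries allow no exact p below 0.33.

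**Figure D3:**
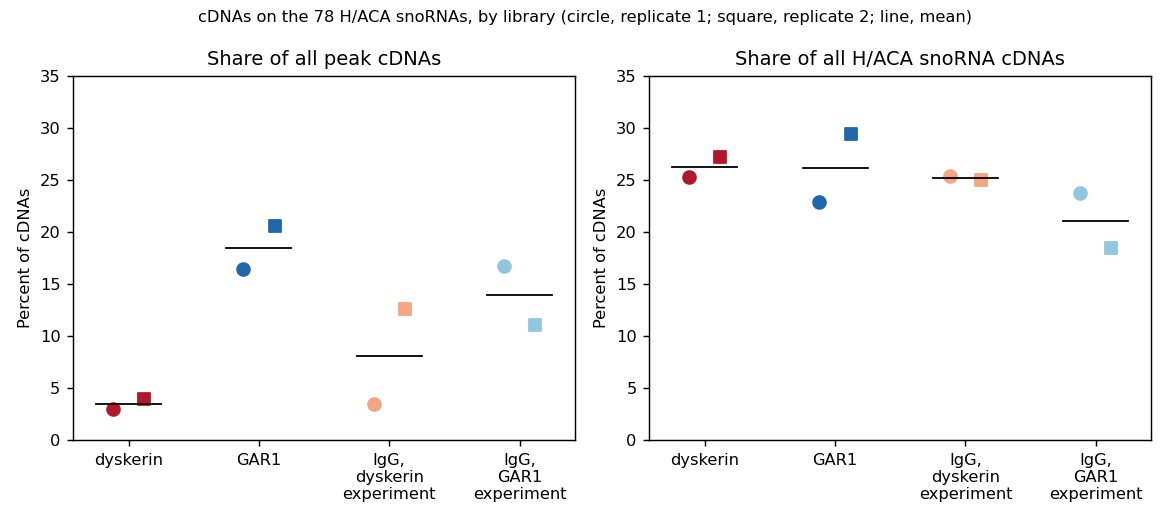
Share of the 78 snoRNAs among all peak cDNAs (left) and among cDNAs on all H/ACA snoRNAs (right), in percent, with circles for replicate 1, squares for replicate 2 and a line for the mean. On the left dyskerin sits at 2.94% and 3.99% and GAR1 at 16.4% and 20.6%, and on the right all 8 libraries lie between 18.5% and 29.4%.

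RNAs were grouped by a fixed list of host gene names, and hosts not on the list were counted as other. The 5 RNAs in listed nucleolar and snoRNP protein genes were SNORA51, SNORA75, SNORA36A, SNORA56 and SNORA38B. They took 14.1 ± 0.515% (SD, n = 2) of the member cDNAs in dyskerin and 17.3 ± 0.0222% in GAR1. In the respective IgG libraries they took 14.7 ± 1.88% and 18.5 ± 0.144%. The 4 RNAs in listed chromatin and transcription genes took 7.94 ± 0.206% and 7.77 ± 0.636% in dyskerin and GAR1. The 4 in genes of RNA binding and splicing proteins took 8.19 ± 1.21% and 4.91 ± 1.04%, and 4 in genes of mitochondrial proteins 6.06 ± 2.20% and 7.60 ± 1.79%. The 4 in chaperone genes took 4.72 ± 0.842% and 4.13 ± 0.21%, and the other 57 took 59 ± 2.87% and 58.3 ± 1.97%. In the dyskerin and GAR1 IgG, means were 8.32% and 7.95% for the chromatin group and 9.07% and 4.59% for the RNA binding group. For the mitochondrial group they were 5.6% and 8.82%, for the chaperone group 7.3% and 4.31%, and for the other 57 RNAs 55.0% and 55.8%. The other 57 included SNORA49 in EP400, a chromatin remodelling ATPase, so a group need not hold every host of its kind. These differences were not tested, and the groups were fixed with earlier results known.

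RNAs annotated in the same host gene differed in their cDNAs. In TCP1, SNORA20 had 2577 and 2958 cDNAs in dyskerin and 3911 and 15022 in GAR1, while SNORA29 had none in any library, and no site lay within 100 nt of it. In TBRG4, SNORA5A had 1286 and 1802 cDNAs in dyskerin and 2671 and 8497 in GAR1. SNORA5B had 17 in GAR1 replicate 2, 4 in IgG replicate 1 of the GAR1 experiment and 0 elsewhere. SNORA5B was 90.9% identical to SNORA5A, so the placement of reads between them is uncertain. In DKC1, the ratio of SNORA36A to SNORA56 was 5.51 and 3.85 in dyskerin, 3.70 and 3.59 in GAR1, and 4.17 to 10.7 in the IgG libraries.

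The order within a host could also differ between the proteins. In KANSL2, which encodes a subunit of a histone acetyltransferase complex, the ratio of SNORA2C to SNORA2B was 0.54 and 0.55 in dyskerin and 1.26 and 1.35 in GAR1. The IgG values were 0.989 and 0.80 in the dyskerin experiment and 1.63 and 1.29 in the GAR1 experiment. All 4 libraries of the dyskerin experiment lay below all 4 of the GAR1 experiment. In TBRG4, the ratio of SNORA5A to SNORA5C was 0.755 and 0.745 in dyskerin and 1.57 and 1.24 in GAR1, while its IgG values of 0.724 and 1.53, and of 1.64 and 0.818, overlapped. In MATR3, which also carries the snoRNA host lncRNA SNHG4 on the same strand, SNORA74A to SNORA74D was 0.883 and 1.33 in dyskerin and 1.71 and 1.36 in GAR1.

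Crosslinks gathered at a few nucleotides of each RNA. Positions count from 1 at the annotated 5′ end. Among 49 RNAs with at least 50 cDNAs in each antibody library, the strongest site inside the annotated RNA was at the same nucleotide for dyskerin and GAR1 in 30 and within 3 nt in 34. With the 5 nt upstream included these counts were 29 and 32, and the strongest site lay upstream of the annotated end in 5 RNAs for dyskerin and in 9 for GAR1, among them SNORA84, SNORA40B and SNORA30 for both proteins and SNORA38 and SNORA38B for GAR1 alone. The strongest site before the midpoint lay between nt 8 and 16 in 24 of 49 for dyskerin and in 32 for GAR1. Among those of 120 to 150 nt, the strongest site past the midpoint lay between nt 76 and 84 in 24 of 43 for dyskerin and in 25 of 44 for GAR1, with a median of nt 81 for both. The strongest site inside the RNA was a T (U in the RNA) in 19 and 18 of 49, while T made up 28.7% of their bases. SNORA73 in MIB1 was the extreme, where nt 52 alone took 91.9% and 78.3% in dyskerin and 96.1% and 96.8% in GAR1. This RNA was 83.9% identical to SNORA73B, and whether reads of SNORA73B were placed on it was not tested.

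The share of cDNAs past the midpoint had a median over the 49 RNAs of 23.1% in dyskerin and 18.8% in GAR1. Both dyskerin replicates lay above both GAR1 replicates for 22 RNAs, both GAR1 replicates above for 11, and they overlapped for 16. Among 60 other SNORA RNAs with as many cDNAs, dyskerin lay above in 41.7% and GAR1 in 28.3%, against 44.9% and 22.4% here, so the counts were near the background. Shares past the midpoint for SNORA57 were 55.8% and 60.5% in dyskerin and 14.3% and 17.7% in GAR1. In its IgG libraries they were 51.2% and 29% for the dyskerin experiment and 16.3% and 15.7% for the GAR1 experiment. Its strongest dyskerin site, nt 95 in the second capital stretch of the sequence above, made up part of this difference and took 23.5% and 21.0% in dyskerin and 4.85% and 4.87% in GAR1. At nt 95 the IgG libraries of the experiments overlapped, with 30.9% and 5.8% in the dyskerin IgG and 7.5% and 11.8% in the GAR1 IgG.

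SNORA54, hosted by the histone chaperone gene NAP1L4, went the other way, with 26.9% and 25.6% past the midpoint in dyskerin and 69.7% and 49.2% in GAR1. Its IgG libraries had 16.6% and 15%, and 51.1% and 63.0%, in the 2 experiments. Dyskerin was strongest at nt 12, with 33.3% and 26.9% of cDNAs, and GAR1 at nt 76, with 48.0% and 25%. SNORA2B shared its strongest site, nt 98, but with 12.3% and 12.3% of cDNAs in dyskerin against 37.2% and 22.3% in GAR1. Past the midpoint it had 25.9% and 26.0% in dyskerin, 67.8% and 52.0% in GAR1, 16.9% and 20% in the dyskerin IgG and 60.4% and 67.9% in the GAR1 IgG.

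SNORA12, in an intron of CWF19L1, differed before the midpoint. Its strongest dyskerin site, nt 71, held 18.1% and 18.7% in dyskerin, 0.435% and 0.572% in GAR1, 6.15% and 8.89% in the dyskerin IgG, and 0.098% and 0.0% in the GAR1 IgG. At nt 41 of SNORA77B the values were 25.2% and 20.8% in dyskerin, 1.51% and 2.30% in GAR1, 19.6% and 23.2% in the dyskerin IgG and 1.21% and 0.0% in the GAR1 IgG. At both nucleotides every library of the dyskerin experiment, IgG included, lay above every library of the GAR1 experiment. At nt 28 of SNORA77B the order was the opposite, with 4.84% and 4.99% in dyskerin and 25.9% and 11.4% in GAR1.

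**Figure D4:**
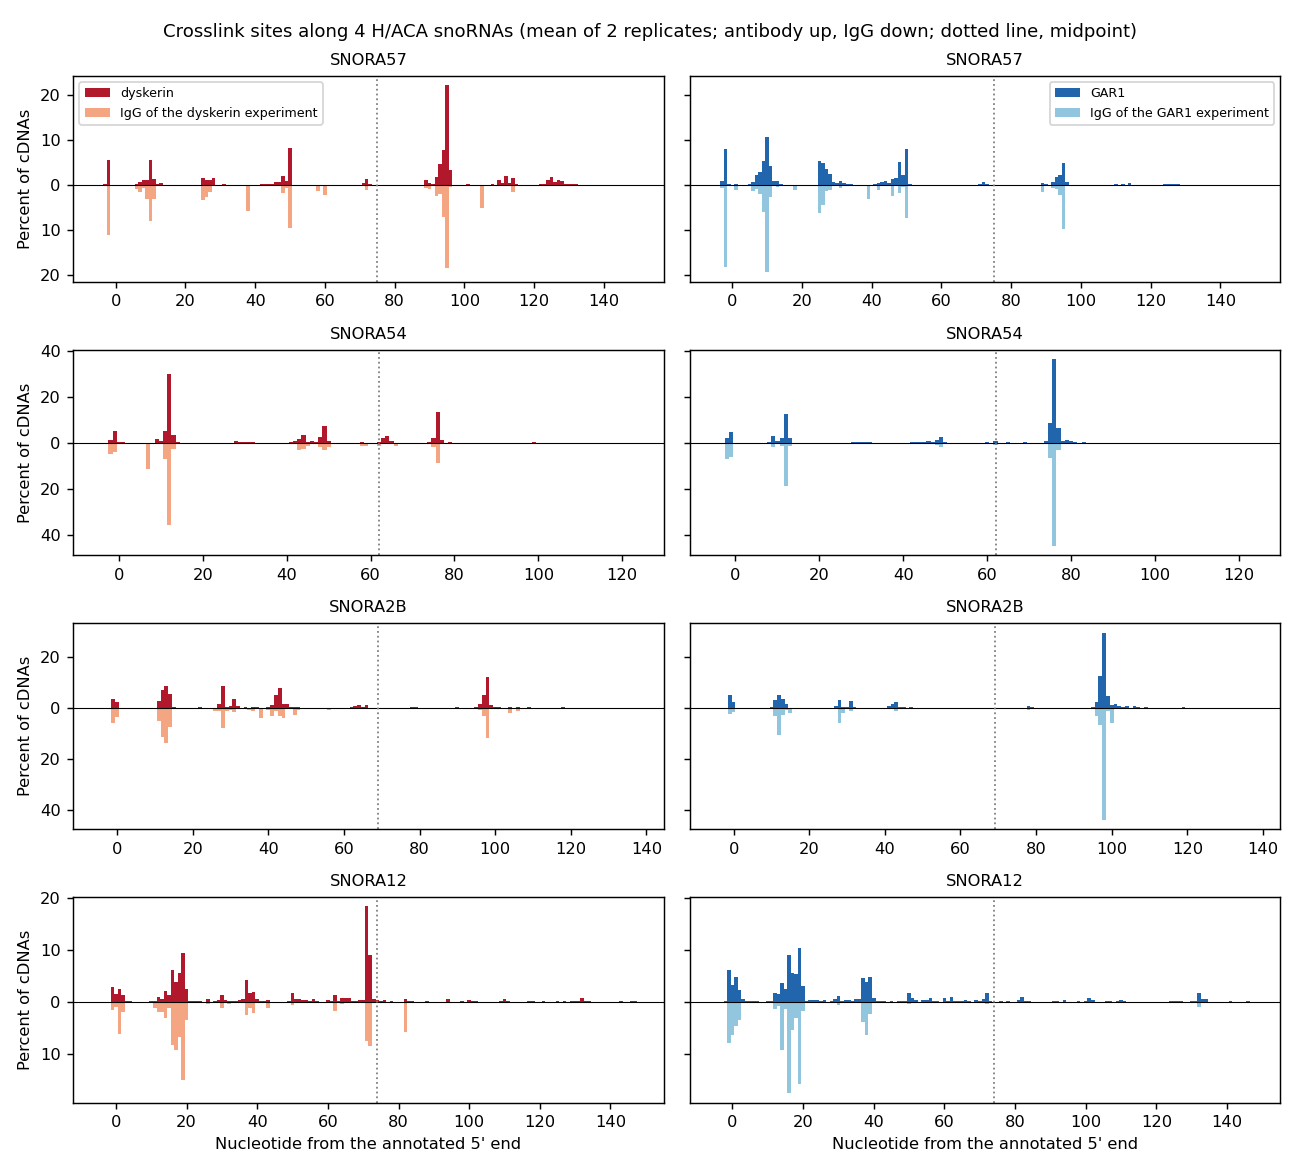
Percent of an RNA's cDNAs at each nucleotide from the annotated 5′ end of SNORA57, SNORA54, SNORA2B and SNORA12, as means of 2 replicates, with the antibody drawn upward, its IgG downward and the midpoint dotted. The nt 71 site of SNORA12 stands out in the dyskerin experiment, and the nt 76 site of SNORA54 and the nt 98 site of SNORA2B in the GAR1 experiment. The nt 95 site of SNORA57 stands out in dyskerin, while the replicates of its IgG differed there, with 30.9% and 5.8%.

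The IgG libraries could be compared for 17 RNAs with at least 20 cDNAs in each of the 8 libraries. The share past the midpoint in the dyskerin IgG was nearer to dyskerin than to GAR1 for 11 of 17, and that in the GAR1 IgG was nearer to GAR1 for 12 of 17. For some RNAs, such as SNORA58B, SNORA20, SNORA77B and SNORA36A, both IgG means lay below both proteins. Nearness then records only which protein was lower, and these counts were not set against other SNORA RNAs, so nothing is concluded from them. All 4 libraries of the dyskerin experiment stood above all 4 of the GAR1 experiment for SNORA57, SNORA74D and SNORA84, and below them for SNORA54 and SNORA2B. Of 38 other SNORA RNAs with as many cDNAs, 7.89% stood above and 5.26% below. By antibody against IgG, the 4 antibody libraries stood above the 4 IgG libraries for SNORA58B, SNORA20 and SNORA77B (28.9% of the 38 others), and below them for none (0.0%). The antibody and the experiment in which a library was made cannot be told apart for dyskerin against GAR1. How the libraries were combined for sequencing is not given in the sources used here. IgG and antibody libraries of an experiment shared sites such as nt 71 of SNORA12 and nt 76 of SNORA54. The IgG values are therefore the level measured in the IgG libraries, and whether they are a background free of antibody-derived cDNAs was not tested.

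**Figure D5:**
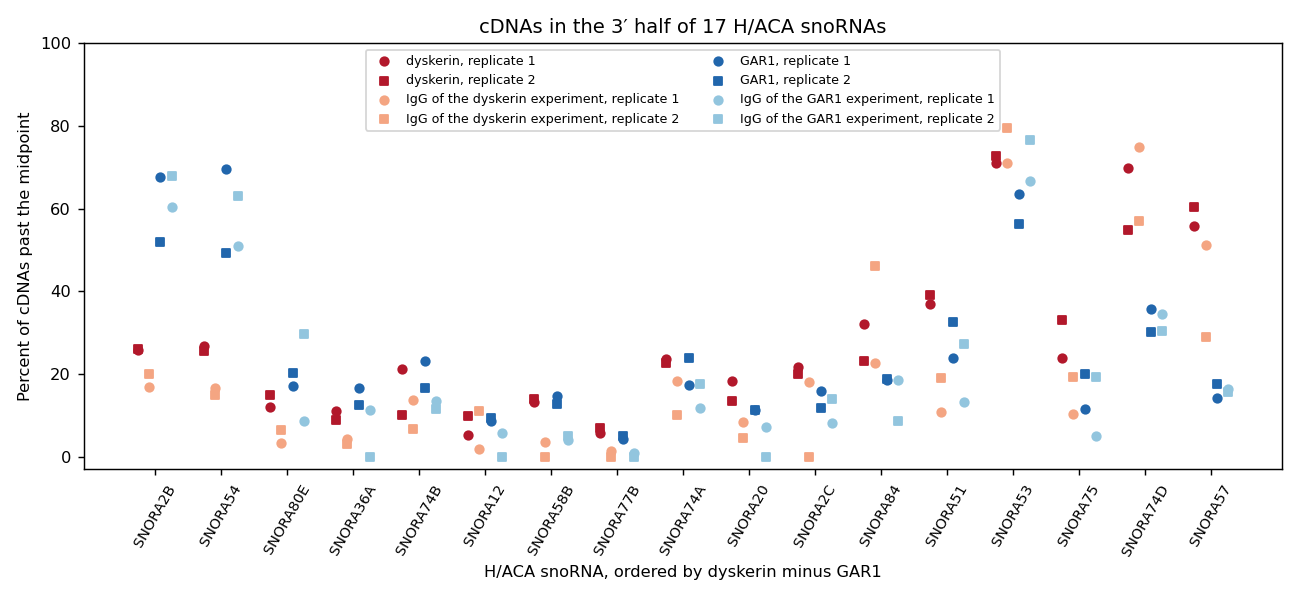
Percent of cDNAs past the midpoint in each library for 17 snoRNAs, ordered by dyskerin minus GAR1. At the left SNORA2B and SNORA54 have their GAR1 and GAR1 IgG points above 49%, and at the right SNORA57 has its GAR1 and GAR1 IgG points below 18%, apart from those of the dyskerin experiment.

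Averaged over the 5 RNAs with at least 50 cDNAs in all 8 libraries (SNORA57, SNORA74A, SNORA75, SNORA77B and SNORA20), the share past the midpoint was 25.5% and 27.3% in dyskerin, 11.8% and 15.6% in GAR1, 17.9% and 12.6% in the dyskerin IgG and 8.26% and 10.5% in the GAR1 IgG. Antibody libraries were higher than IgG by 7.74 percentage points on average, and the two-sided exact permutation test gave a p of 0.171, or 0.513 after Benjamini-Hochberg adjustment over the 3 library measures. These arrangements mix the experiments. Within them, dyskerin exceeded its IgG by 11.1 points and GAR1 its IgG by 4.32 points, with both antibody libraries above both IgG libraries in each. When libraries were exchanged within an experiment only, an alternative chosen after the data were seen, the exact p was 0.0556, the smallest that 36 arrangements allow. With the 17 RNAs of at least 20 cDNAs the difference was 5.40 points at the smallest p the design allows, 0.0286. The exact p was also 0.0286 without SNORA57, an alternative chosen after the data were seen, with a difference of 7.41 points. Adjusted over the 3 measures, with the other measures as reported, each of these was 0.0857 and missed the threshold. The IgG libraries also had fewer sites. On SNORA77B there were 76 and 97 sites in dyskerin and 85 and 100 in GAR1. Its IgG libraries had 30 and 17 in the dyskerin experiment and 62 and 17 in the GAR1 experiment. The part that depth played in the difference was not tested.

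Some of these snoRNAs overlap an annotated microRNA hairpin, and MIR3651, MIR1291 and MIR664A reach beyond the annotated snoRNA. MIR3651 spans 65.4% of SNORA84, and 59.1% and 50.2% of SNORA84's dyskerin cDNAs fell in it, against 30.5% and 29.2% in GAR1, with 43.9% and 50% in the dyskerin IgG and 25.4% and 15.2% in the GAR1 IgG. MIR1291 spans 54.7% of SNORA2C and held 78.8% and 80.2% of its cDNAs in dyskerin and 84.2% and 88.2% in GAR1. These include cDNAs just upstream of SNORA2C, which were 6.92% and 16.6% of its cDNAs in dyskerin and 14.3% and 20.4% in GAR1. MIR664B covers 46.2% of SNORA36A, but held 7.47% and 5.42% in dyskerin and 11% and 8.23% in GAR1. In MIR664A, which spans 56.5% of SNORA36B, the values were 49.8% and 40.7% in dyskerin and 47.3% and 27.9% in GAR1.

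Most cDNAs of the 69 host loci lay on the snoRNA and not on the rest of the host transcript. The snoRNA share of host cDNAs, with other short RNAs left out, was 82.9% and 85.4% in dyskerin, 99.9% and 99.8% in GAR1, 83.8% and 99.0% in the dyskerin IgG and 99.9% and 99.2% in the GAR1 IgG. Host exons held 11.8% and 11.8% in dyskerin and 11.8% and 0.77% in its IgG, against 0.0146% and 0.0313% in GAR1. The mean over the 4 antibody libraries minus that over the 4 IgG libraries was -3.48 percentage points, and the two-sided exact permutation test gave a p of 0.686. Within the experiments it was -7.25 points for dyskerin and 0.3 points for GAR1.

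Hosts differed widely in dyskerin. At NCL, SNORA75 held 40.4% and 44.5% of the cDNAs, with 2670 and 4674 cDNAs on exons of nucleolin, while in both GAR1 libraries exons had 1 cDNA each. In the dyskerin IgG the NCL share was 22.8% and 90.5%. At EP400, SNORA49 held 54.1% and 52.6% in dyskerin, and GAR1 had no exon cDNA. At DKC1, 96.5% and 95.9% lay on SNORA36A and SNORA56 in dyskerin, with 90 and 113 cDNAs on exons, and GAR1 had none on exons. TCP1 and SLC25A3, which encodes the mitochondrial phosphate carrier, had no exon cDNA in any library beside SNORA20 and SNORA53. Sites were called by the authors within each gene, and the part that a strong snoRNA played in the call of sites elsewhere in its host was not tested.

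Of 14 genes fixed for the H/ACA pathway, comprising the core proteins, the assembly factors, the RNA maturation enzymes and the telomerase RNA TERC, 9 were tested as transcripts. They were DKC1, SHQ1, RUVBL1, RUVBL2, NOLC1, TCOF1, PARN, TENT4B and TOE1. In dyskerin against GAR1, 9 of 9 were called higher, near the 90.6% of all genes. With scaling to all peak cDNAs this was the opposite direction to the snoRNAs. Against IgG 0 of 9 were called in either experiment by edgeR. DKC1 transcripts outside the snoRNAs measured 53.13 and 60.25 CPM in dyskerin, 0.0 in both GAR1 libraries, 27.3 and 0.0 CPM in the dyskerin IgG and 0.0 in both GAR1 IgG libraries. TERC, itself an H/ACA RNA, had no significant site in any library, nor had the transcripts of NHP2 and NOP10, while those of GAR1 and NAF1 had too few cDNAs to be tested.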

How the data were processed

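Crosslink sites were measured by iCLIP in 8 libraries, and samples were grouped by the titles in the labels. Per the labels and the study's methods, reads were examined with FastQC 0.11.9, trimmed with Cutadapt, whose version is not given in the sources used here, aligned to GRCh38 with STAR 2.7.0e, and turned by iCount into cDNA counts at single nucleotides, with significant sites called in each library by itself. The deposited values are raw counts, whole numbers of cDNAs, left unscaled by the authors. The deposited clusters were not used here. Because each library was called alone, a total is the part that passed the call and not sequencing depth.

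Each site was given to 1 of the 62700 GENCODE 44 genes on its strand, members first with 5 nt upstream, then other short RNAs, exons and introns. The quasi-likelihood test of edgeR 4.0.16, run in R 4.3.3, was applied to counts per gene, with library size the total of peak cDNAs, all 8 libraries in 1 fit, genes of at least 10 counts in at least 2 libraries, and Benjamini-Hochberg adjustment over all genes with a threshold of 0.05. DESeq2 1.42.0 was an alternative. Shares were compared with an exact permutation test of 4 against 4 libraries, and within each experiment. CPM are cDNAs per 1000000 peak cDNAs. Identity came from global alignments in Biopython. Data were simulated for dyskerin against GAR1 (4903 genes) with the fitted dispersions. At each size 100 genes at or above the median level were changed, equally often up and down, and all others were unchanged. Of genes changed by a log2 fold of 3, 48.0% were recovered, and of those changed by 5, 87.0%. Of unchanged genes 0.213% were called. In the data 90.6% of genes were called higher, so these rates hold for the simulated setting only.

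The members and all lists were chosen with earlier results of these data known. Named RNAs were the 12 of highest mean level in the antibody libraries, the 5 highest and 5 lowest ratios of dyskerin to GAR1, those hosted by DKC1, NCL, NOP56 or TCP1, SNORA35, and up to 10 called RNAs of smallest adjusted p per comparison. RNAs named for positions, or for pairs within a host, were chosen after their values were seen. The labels do not say whether replicates were separate cultures, so a p-value reflects the spread of these libraries alone, part of which may be technical.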

Additional observations from a re-analysis of the deposited data

How the results depend on the processing

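The count of RNAs called in dyskerin against GAR1, 28 as reported, was 47 with TMM scaling, 55 with DESeq2, 17 with sites of at least 3 cDNAs, 57 with each site counted once, 56 in a fit of only the groups compared, 13 with the replicate number as a block and 1, in the higher direction, with scaling to H/ACA snoRNA cDNAs. Leaving out a library gave 0 to 54. A fit without a library leaves a group with 1 sample, which is assumed to vary like the other groups. The replicate block is a check only, since deviations of same-numbered libraries correlated by no more than 0.1 over genes. The exact ends and the stricter filter moved the count by less than 1.5 times, and the lack of a filter gave 20. In dyskerin against its IgG, 1 RNA (SNORA24B) was called higher in the fit of only the groups compared and 0 elsewhere, leaving out a library gave 0 to 0, and in GAR1 against its IgG the count was 0 in every setting run. SNORA11E turned to -3.66 with TMM scaling, -3.29 with DESeq2 and -0.36 without GAR1 replicate 1, and was 5.67 without GAR1 replicate 2. The median in dyskerin against its IgG turned to 0.14 with sites of at least 3 cDNAs. The median in GAR1 against its IgG turned to -0.27 with each site counted once, and was 4.73 with TMM scaling.

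The difference in the share of peak cDNAs between antibody and IgG had no settled sign, being -6.15 with each site counted once, -0.0556 without near-identical copies and -0.125 without SNORA57, the RNA of highest mean level, whose removal was chosen after the data were seen, and -3.21 to 2.69 when a library was left out. For the share past the midpoint, the exact p was 0.0286 with a difference of 17.7 with each site counted once, 7.41 without SNORA57 and 5.40 with the lower minimum of cDNAs, each 0.0857 after adjustment over the 3 library measures, and leaving out a library gave 5.31 to 10.5. Exchanging libraries only within an experiment put no measure past the threshold, which 36 arrangements cannot reach. For the snoRNA share of host cDNAs, leaving out a library gave -7.37 to -0.442, and no alternative changed its sign or its side of the threshold. The shallow IgG libraries, with a floor of 280.0 and 367 CPM, limit every comparison with IgG. They also had fewer sites, and the part that depth played in the share past the midpoint was not tested.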
